A study of Mus musculus with 15 samples.

Results

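Solute carriers are the largest superfamily of membrane transporters, and the genes described here are those of the superfamily that were well expressed in macrophages sorted from mouse gliomas. The members were chosen by their expression level: the set held the protein-coding genes whose symbol starts with Slc and whose raw counts summed to at least 1500 over all 15 libraries. Of 389 protein-coding Slc genes among 55486 genes in the table, 156 reached that sum and 67 had no count at all. Of the 156, 7 were left out by name, which left 149 members. The last genes above the limit were Slc52a3 with 1513 counts, Slc35e3 with 1514 and Slc25a24 with 1526, and the first below it were Slc14a1 with 1474, Slc4a8 with 1330 and Slc7a4 with 1217. The rule used the sum over all libraries, so a gene high in a single group could enter through that group, and 1 member, Slc52a3, had over 75% of its counts in unloaded MDM. The name rule also caught 3 genes whose products are not transporters: Slc9a3r1 encodes a scaffold protein and Slc4a1ap an adaptor, both of which bind membrane transporters, and Slc7a6os is named for its place beside Slc7a6.

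All cells came from primary brain tumours of the PDG-Ink4a model, in which PDGFB expression starts in Nestin-positive progenitor cells that lack Ink4a/Arf, and all groups carry the genotype "Ink4a/ArfKO, PDGFB". The libraries fell into 4 groups: lipid-laden monocyte-derived macrophages (MDM) with 3 libraries, non-lipid-laden MDM with 4, lipid-laden microglia with 4 and non-lipid-laden microglia with 4. MDM enter the brain from the blood and microglia are its resident macrophages. The non-lipid-laden groups are called unloaded here. The sources used here give neither the stain and gate for lipid load nor the age of the mice. Titles carry the numbers 224, 221, 431 and 718, and values per library are listed in that order. Number 431 of lipid-laden MDM was not analysed here. Where nothing says that libraries of a group come from separate animals, the p-values measure only the spread between these libraries.

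Total counts per library ranged from 7798952 to 11419338, and the 149 members together took 1.15% to 1.44% of them. Levels are counts scaled to a common library total (CPM) on TMM-scaled library sizes, given as mean ± SD (n = 3 for lipid-laden MDM, n = 4 for each other group), and log2 fold changes are given ± SE. A member was called at an adjusted p under 0.05 in edgeR's quasi-likelihood test, with Benjamini-Hochberg adjustment over all 14843 genes tested, and all 149 members were among those. Unless another fit is named, calls are those of this main fit, which did not use the title numbers. The labels' cell types were checked on 10 markers each. Homeostatic microglia markers summed to 7419.7 to 10976 CPM in lipid-laden MDM, 2655 to 4223 CPM in unloaded MDM, 6839 to 17677 CPM in lipid-laden microglia and 10744 to 16326 CPM in unloaded microglia. Markers of monocyte origin summed to 5705 to 6804, 6982 to 7520.0, 1873 to 2737 and 1401 to 2292 CPM in the same order of groups. Dendritic cell markers summed to 239.5 to 300.1 CPM in lipid-laden MDM, 1887 to 3309 CPM in unloaded MDM, 16.5 to 27.0 CPM in lipid-laden microglia and 28.4 to 63.5 CPM in unloaded microglia. The lipid-laden libraries numbered 221 of both origins stood apart from the rest of their groups on the second principal component, and each count below is also given without them where it moved by more than 1.5 times. In bulk samples, fewer cells of a type and less RNA per cell cannot be told apart.

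Solute carriers move amino acids, sugars, nucleosides, vitamins, metals, ions and metabolites across the plasma membrane and the membranes of organelles, mostly by facilitated diffusion or by coupling to ion gradients. Macrophages depend on them to empty the phagolysosome of digested material: amino acids, nucleosides, sialic acid, heme and metals leave it through carriers in its membrane. Others supply glutamine, cystine and folate to the cytosol, or exchange metabolites across the inner mitochondrial membrane. For this account the members were sorted into 11 groups by the substrate that is usually given for their family. A member's own substrate can differ from that of its family, and none is given here for Slc35f6 or Slc66a2. Calls per group are to be read beside the shares of all genes called, given with each comparison. No group was tested as a set.

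The promoters of the carriers with the strongest evidence of a difference with lipid load are shown first, since these genes head the comparisons of lipid load. They are the 250 bases before the annotated start of Slc46a1 (chr11:78465451-78465700 on the plus strand), Slc35f6 (chr5:30647689-30647938 on the plus strand), Slco2b1 (chr7:99711341-99711590 on the minus strand) and Slc11a1 (chr1:74374953-74375202 on the plus strand), the 4 genes with the smallest p in the lipid-load comparisons among members with a window in the table, written 5′ to 3′ from RefSeq on build GRCm38.p6. Capitals mark a match to 1 of 5 motifs on either strand, and these 4 windows held none:
Slc46a1: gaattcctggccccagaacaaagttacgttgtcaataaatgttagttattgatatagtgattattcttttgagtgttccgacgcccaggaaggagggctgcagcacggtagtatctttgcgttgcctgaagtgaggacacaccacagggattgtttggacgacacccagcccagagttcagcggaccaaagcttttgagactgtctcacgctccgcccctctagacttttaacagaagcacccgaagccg
Slc35f6: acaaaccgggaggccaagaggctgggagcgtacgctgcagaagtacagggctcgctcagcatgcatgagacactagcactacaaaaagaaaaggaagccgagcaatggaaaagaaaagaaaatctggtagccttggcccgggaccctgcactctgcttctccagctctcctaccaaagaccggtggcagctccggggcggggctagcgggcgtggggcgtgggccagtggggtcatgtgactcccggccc
Slco2b1: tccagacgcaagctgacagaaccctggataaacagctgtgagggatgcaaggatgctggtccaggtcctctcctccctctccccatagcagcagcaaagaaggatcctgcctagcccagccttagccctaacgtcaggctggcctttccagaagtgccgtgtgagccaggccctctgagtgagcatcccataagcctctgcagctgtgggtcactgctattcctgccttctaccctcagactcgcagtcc
Slc11a1: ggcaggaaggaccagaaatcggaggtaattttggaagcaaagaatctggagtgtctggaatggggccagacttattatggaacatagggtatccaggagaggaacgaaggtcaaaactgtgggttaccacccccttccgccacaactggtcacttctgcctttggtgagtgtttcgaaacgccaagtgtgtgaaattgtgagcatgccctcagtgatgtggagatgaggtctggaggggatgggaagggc
The next 2 called genes whose window held a match were added after that was seen, Slc25a38 (chr9:120110132-120110381 on the plus strand) and Slc38a7 (chr8:95853492-95853741 on the minus strand):
Slc25a38: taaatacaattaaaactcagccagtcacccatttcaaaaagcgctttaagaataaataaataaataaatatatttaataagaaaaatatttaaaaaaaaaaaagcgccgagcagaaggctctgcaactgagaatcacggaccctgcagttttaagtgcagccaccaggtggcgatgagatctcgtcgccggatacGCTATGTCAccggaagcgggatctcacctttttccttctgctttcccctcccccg
Slc38a7: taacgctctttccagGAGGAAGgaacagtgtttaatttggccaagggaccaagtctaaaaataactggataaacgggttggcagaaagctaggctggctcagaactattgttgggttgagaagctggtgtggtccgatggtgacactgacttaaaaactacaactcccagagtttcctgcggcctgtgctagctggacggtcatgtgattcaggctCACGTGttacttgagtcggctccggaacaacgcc
The motifs were ACGTG, the core of a hypoxia response element; CACGTG, an E-box of the kind bound by TFEB, which contains ACGTG; TGATGNAA, an amino acid response element; TGACNNNGC, the core of an antioxidant response element; and GAGGAAG, a PU.1-type ETS core added after the data were seen. Promoter windows were found for 111 of the 149 members, 154 windows in all. ACGTG stood in 24.7% of them, against 16.6% of all 32851 windows in the table. CACGTG stood in 14.3% of the members' windows, against 6.02% of all. TGACNNNGC stood in 17.5%, against 10.2% of all, TGATGNAA in 3.25%, against 3.45%, and GAGGAAG in 8.44%, against 10.6%. A match describes these letters and is not evidence of a bound site, and windows of the same gene can overlap. The members were chosen by expression level, and their windows were not compared with those of other genes of like expression.

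Levels spanned a wide range. Per kilobase of exon, the ADP/ATP carrier gene Slc25a5 stood at 635 CPM per kb in lipid-laden MDM, 567 in unloaded MDM, 599.6 in lipid-laden microglia and 593 in unloaded microglia, the highest member in each group. Slc3a2, the heavy chain that brings several amino acid exchangers to the plasma membrane, came second in each group, at 364, 414, 303 and 326 CPM per kb. Behind them the zinc importer gene Slc39a1 (99.5, 101, 104 and 108 CPM per kb in the same order) and the mitochondrial phosphate carrier gene Slc25a3 were among the top 8 of each group. Slc11a1, the divalent metal transporter of the phagosome membrane, ranked 3 in lipid-laden MDM and lipid-laden microglia and 5 in unloaded microglia, and was outside the top 8 in unloaded MDM. The median member stood at 8.87 CPM per kb in lipid-laden MDM, 7.14 in unloaded MDM, 8.59 in lipid-laden microglia and 8.82 in unloaded microglia. Slc25a5, Slc3a2, Slc25a3 and Slc39a1 were called in none of the comparisons below.

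The unloaded groups of different origin gave the most calls of any comparison, among the solute carriers as among all genes tested. In unloaded MDM against unloaded microglia, 12 members were higher and 35 lower in MDM. That is 8.05% of members higher, against 10.7% of all genes tested and 15% of the genes with at least 1500 counts, and 23.5% of members lower, against 12.5% of all genes and 14.2% of those with at least 1500 counts. The median log2 fold change was -0.09 over the members and -0.12 over all genes. The 2 groups did not overlap, with every MDM library above every microglial one, for 18 members (12.1%, against 13.8% of all genes), and with every MDM library below for 36 (24.2%, against 14.8%). Of the 12, Slc52a3 entered the set through its counts in unloaded MDM, and without it 11 were higher. The 11 still hold Slc25a24, which passed the limit narrowly with 1526 counts and had its highest mean level in unloaded MDM. Its call is therefore a description too. So is the lower call of Slc35e3, which passed the limit narrowly with 1514 counts and was higher in unloaded microglia. Leaving out Slc52a3, the lowest log2 fold changes were those of Slc22a17 (-3.84), the cation cotransporter gene Slc12a2 (-3.46) and the folate transporter gene Slc46a1 (-3.04). The highest were those of Slc25a24 (3.18), Slc66a2 (2.59) and Slc9a7 (2.28). Microglia markers moved with this comparison (10 of 10 lower in MDM), as did markers of monocyte origin (10 of 10 higher), of dendritic cells (10 of 10 higher), of T and NK cells (6 of 10 higher, 32.3 to 178 CPM summed in unloaded MDM, against 0 to 9.03 CPM in unloaded microglia) and of glioma and progenitor cells (9 of 10 lower, 14.1 to 24.7 CPM summed in unloaded MDM, against 125 to 400.4 CPM in unloaded microglia). Of tested markers, 1 of 7 for neutrophils and 1 of 3 for neurons were lower in MDM. For astrocytes 1 of 9 tested was higher and 2 lower, and for oligodendrocytes 1 of 6 higher and 2 lower. Their part in the result was not tested.

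**Figure D1:**
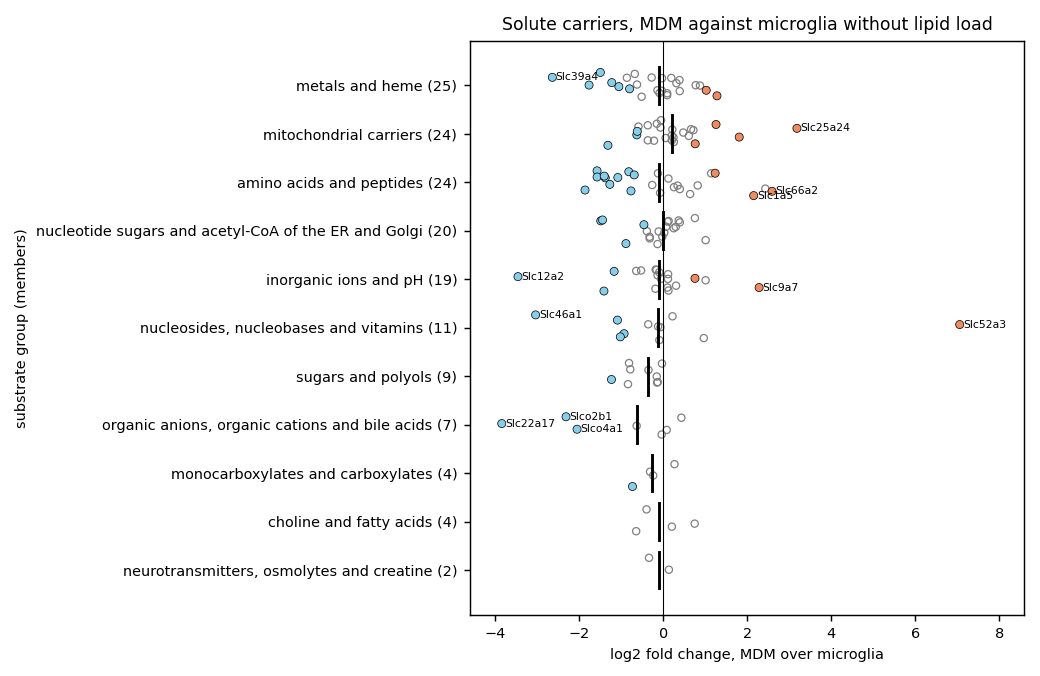
Log2 fold change of unloaded MDM over unloaded microglia (x axis) for each of the 149 solute carrier genes, in rows by substrate group with the number of members. Filled points passed an adjusted p of 0.05 (orange higher and blue lower in MDM) and open points did not. Bars mark the median of each row. The 7 organic anion and cation carriers hold 3 lower calls, and all 9 sugar carriers lie left of 0, 1 of them called. Over all genes tested the median was -0.12.

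Within MDM, the genes that rose with lipid load included the folate transporter gene Slc46a1, the organic anion carrier gene Slco2b1 and the lysosomal exporter gene Slc38a7, and those that fell included the glutamine importer genes Slc1a5 and Slc38a1. In lipid-laden against unloaded MDM, 20 members rose and 7 fell. That is 13.4% of members higher, against 5.21% of all genes tested and 7.36% of those with at least 1500 counts, and 4.7% of members lower, against 2.96% and 4.77%. The median log2 fold change was 0.15 over the members and 0.04 over all genes. The largest rises with a mean of log2 CPM of at least 2 were those of Slc22a17 (2.34), Slc39a4 (2.13), Slc46a1 (2.09), Slc38a7 (1.72) and Slco2b1 (1.69), and the largest falls, leaving out Slc52a3, those of Slc25a38 (-1.70), Slc1a5 (-1.66) and Slc66a2 (-1.56). Without Slc52a3, which was chosen through its counts in unloaded MDM, 6 fell. The groups did not overlap, with every lipid-laden library above, for 31 members (20.8%, against 11.1% of all genes), and with every one below for 17 (11.4%, against 10.7%). Over the same comparison 9 of 10 homeostatic microglia markers rose, 5 of 10 markers of monocyte origin and 7 of 10 dendritic cell markers fell, and 4 of 10 glioma and progenitor markers rose (69.7 to 139.6 CPM summed in lipid-laden MDM, against 14.1 to 24.7 CPM in unloaded MDM). Of 7 tested neutrophil markers 2 rose (list sum 153 to 633 CPM in lipid-laden MDM, against 99.5 to 160 CPM in unloaded MDM). Of tested markers, 2 of 9 for astrocytes and 1 of 6 for oligodendrocytes also rose, and none of these 3 lists held a fall. Their part in the result was not tested. The count of 20 became 10 without lipid-laden MDM 224 and 12 without lipid-laden MDM 718, where 552 and 451 of all genes were higher, against 773. It became 12 without unloaded MDM 224 and 13 without unloaded MDM 718, where 543 and 582 of all genes were higher. The count of 7 became 4 without lipid-laden MDM 718, where 206 of all genes were lower, against 440.

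**Figure D2:**
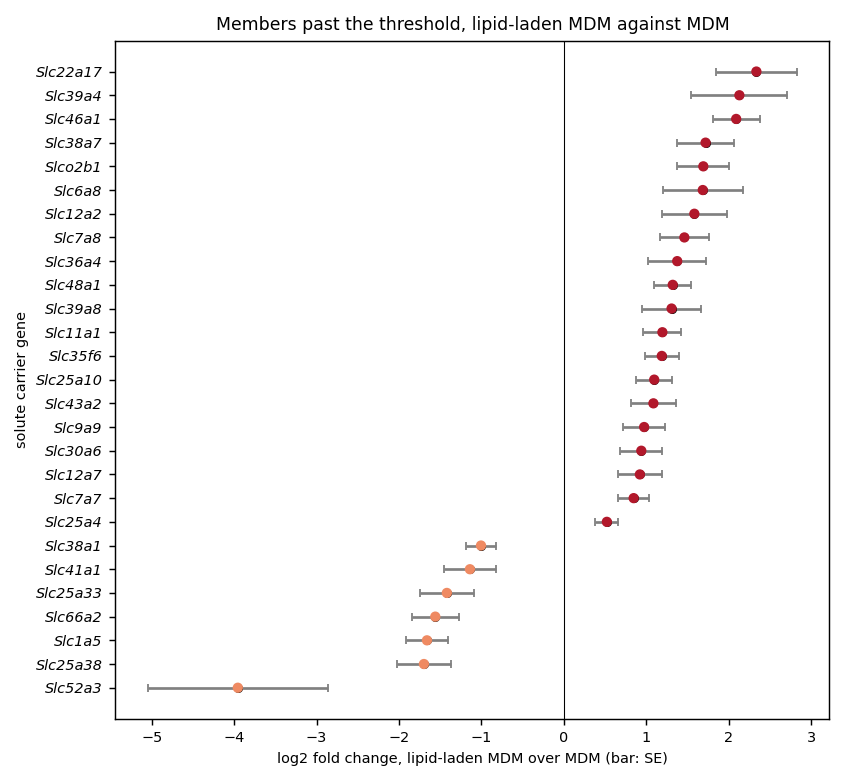
Log2 fold change of lipid-laden over unloaded MDM (points) with its SE (bars) for the 27 solute carrier genes past the threshold, ordered by size. The 20 genes that rose (red) lie between 0.52 and 2.34 and the 7 that fell (orange) between -3.96 and -1.01; the lowest point, Slc52a3, is a gene that entered the set through its counts in unloaded MDM.

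In microglia no carrier passed the test with lipid load. In lipid-laden against unloaded microglia, edgeR called 0 of 149 members, as it called 0 of all 14843 genes (0%), and 18 members (12.1%) had an unadjusted p under 0.05, against 9.21% of all genes. The smallest adjusted p was that of the creatine transporter gene Slc6a8, 0.19. Limma-voom also called 0 members, and DESeq2 called 2 higher, Slc6a8 and Slc48a1 (1.34%, against 0.62% of all genes called higher by that tool). Same-numbered libraries deviated together in this comparison, and with the number as a block edgeR called 1 member, the heme carrier gene Slc48a1 (log2 fold change 0.79, adjusted p = 0.0287), against 0.404% of all genes called higher in that fit. The median log2 fold change was -0.05 over the members and -0.02 over all genes. The microglia groups did not overlap for 6 members with every lipid-laden library above (4.03%, against 2.65% of all genes) and for 4 below (2.68%, against 2.81%).

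Between the lipid-laden groups, few carriers separated the origins. In lipid-laden MDM against lipid-laden microglia, Slc16a7 and Slc1a5 were higher and Slc39a10 was lower, which is 1.34% of members higher against 2.2% of all genes and 3.09% of those with at least 1500 counts, and 0.671% lower against 0.579% and 0.899%. The groups did not overlap for 6 members with every MDM library above (4.03%, against 7.35% of all genes) and for 6 below (4.03%, against 5.17%). With the number as a block, where same-numbered libraries deviated together, 3 members were higher (2.84% of all genes) and 4 lower (0.99% of all genes): Slc39a11 was added to the higher ones, and the lower ones were Slc12a2, Slc23a2, Slc38a10 and Slc39a10. This comparison shares its lipid-laden libraries with those above. Without lipid-laden MDM 224, or without lipid-laden MDM 718, none of the 3 was called. Over all genes the higher calls then went from 327 to 155 and 226, and the lower calls from 86 to 13 and 35. In the same comparison 8 of 10 dendritic cell markers, 6 of 10 markers of monocyte origin and 4 of 10 T and NK cell markers were higher in lipid-laden MDM, and 2 of 10 glioma and progenitor markers and 1 of 10 homeostatic microglia markers lower. Their part in the result was not tested.

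The test of the difference between the lipid-load effects, MDM minus microglia, called 3 members higher (2.01%, against 1.6% of all genes and 2.36% of those with at least 1500 counts) and 1 lower (0.671%, against 0.93% and 1.56%). The higher ones were Slc46a1, Slco2b1 and Slc22a17 and the lower one was Slc66a2. For the same difference 8 of 10 homeostatic microglia markers and 1 of 10 astrocyte markers were called higher, and 4 of 10 markers of monocyte origin and 1 of 10 dendritic cell markers lower, and their part in the result was not tested. Slc46a1 was at 2.08 ± 0.38 (adjusted p = 0.00870), and was called under each of the 21 alternatives. For Slco2b1 the difference was 2.04 ± 0.43 (adjusted p = 0.0185), for Slc22a17 2.70 ± 0.65 (adjusted p = 0.0378) and for Slc66a2 -1.92 ± 0.38 (adjusted p = 0.0125). Slco2b1 lost its call without lipid-laden MDM 224 or 718 (highest adjusted p 0.0596), and Slc66a2 without lipid-laden MDM 718 or without both libraries numbered 221 (highest 0.0533). Slc22a17 lost its call with limma-voom, without both libraries numbered 221 and when any 1 of 11 libraries was left out (highest 0.126). With the number as a block, 12 members were higher (8.05%, against 2.82% of all genes) and 2 lower (1.34%, against 1.61%). The added higher ones were Slc12a2 (2.17, adjusted p = 0.00767), Slc7a7 (0.96, adjusted p = 0.00690), Slco4a1, Slc7a8, Slc35f6, Slc25a36, Slc29a3, Slc12a7 and Slc38a7, with adjusted p between 0.0226 and 0.0390 for the last 7, and the added lower one was Slc38a1 (-0.74, adjusted p = 0.0394). Same-numbered libraries deviated together between the microglial groups and between the lipid-laden groups, but not by the same rule between the MDM groups. The count of 3 (237 of all genes) became 6 without both lipid-laden libraries numbered 221 (176 of all genes) and 7 without that of MDM alone (209). It became 6 without lipid-laden microglia 224 (263), 5 without unloaded MDM 221 (253) and 1 without lipid-laden MDM 224 (154) or 718 (113). The count of 1 (138 of all genes) became 2 without lipid-laden microglia 221 (117) or unloaded MDM 221 (134). It became 0 without lipid-laden MDM 718 (73) or without both lipid-laden libraries numbered 221 (110).

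**Figure D3:**
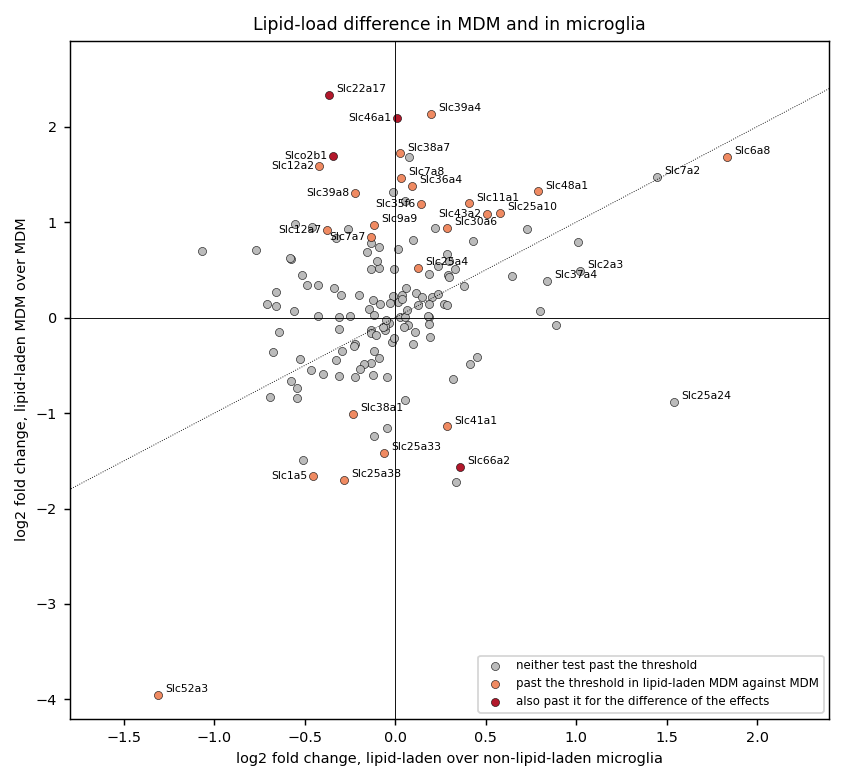
Log2 fold change with lipid load in MDM (y axis) against that in microglia (x axis) for the 149 solute carrier genes, from groups that share no library; the dotted line marks equal changes. Orange genes passed the threshold in lipid-laden against unloaded MDM and dark red ones also passed it for the difference of the effects: Slc46a1, at 2.09 in MDM and 0.01 in microglia, lies on the vertical axis, and Slc6a8, at 1.69 and 1.83, near the dotted line.

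Vitamin, nucleoside and nucleobase carriers numbered 11. In lipid-laden against unloaded MDM 1 rose and 1 fell, and in unloaded MDM against unloaded microglia 1 was higher and 4 lower. Slc46a1 encodes the proton-coupled folate transporter, which also moves heme. It had 67.0, 54.6 and 81.1 CPM in lipid-laden MDM, 15.5, 17.6, 22.1 and 8.42 CPM in unloaded MDM, 182, 99.3, 102 and 140.4 CPM in lipid-laden microglia and 147, 104, 136 and 135 CPM in unloaded microglia. Every lipid-laden MDM library was above every unloaded MDM library and below every microglial one of either kind. The rise in lipid-laden MDM was 2.09 ± 0.28 (adjusted p = 0.000379), and lipid-laden microglia did not pass the test against unloaded microglia (log2 fold change 0.01 ± 0.26, adjusted p = 1.00; 95% interval -0.49 to 0.51). Slc52a3 encodes a riboflavin transporter. It had 1.62, 5.18 and 0.661 CPM in lipid-laden MDM, 44.1, 49.8, 31.2 and 29.4 CPM in unloaded MDM, 0, 0, 0 and 0.407 CPM in lipid-laden microglia and 1.08, 0, 0 and 0 CPM in unloaded microglia, so that all unloaded MDM libraries were above all others and most microglial libraries were at 0. It is the called fall within MDM and the higher call between the unloaded groups in this class, and since its counts in unloaded MDM brought it into the set, its levels are a description. Of the 10 dendritic cell markers 7 also fell with lipid load in MDM, with the sums given above.

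The remaining lower calls of unloaded MDM in that class were Slc23a2, which imports ascorbate, at -1.09 ± 0.24 (adjusted p = 0.00373), Slc29a3, a nucleoside transporter of the lysosome, at -0.93 ± 0.22 (adjusted p = 0.00534), and Slc19a1, the reduced folate carrier, at -1.02 ± 0.30 (adjusted p = 0.0206), a call lost without unloaded MDM 224 or unloaded microglia 431 (highest adjusted p 0.0715). Slc29a3 had 233, 134 and 288 CPM in lipid-laden MDM, 142, 151, 163 and 113 CPM in unloaded MDM, 239.9, 139.9, 165 and 181 CPM in lipid-laden microglia and 302, 233, 267 and 282 CPM in unloaded microglia. With lipid load its log2 fold change was 0.62 ± 0.23 (adjusted p = 0.112) in MDM and -0.58 ± 0.21 (adjusted p = 0.409) in microglia, neither past the threshold, and the difference of these effects was 1.20 ± 0.31 (adjusted p = 0.0549), or 1.17 (adjusted p = 0.0346) with the number as a block. The thiamine carrier gene Slc19a2 stood at 14.3 ± 10.0 CPM in lipid-laden MDM, 8.24 ± 4.30 CPM in unloaded MDM, 18.1 ± 5.02 CPM in lipid-laden microglia and 8.98 ± 5.12 CPM in unloaded microglia, and passed no test, nor did Slc29a1, the main equilibrative nucleoside transporter, or the lysosomal carrier gene Slc46a3.

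Organic anion and cation carriers numbered 7, of which 2 rose in lipid-laden MDM and 3 were lower in unloaded MDM than in unloaded microglia. Slco2b1 encodes a carrier of steroid sulfates and thyroid hormone. It had 320.3, 159 and 289 CPM in lipid-laden MDM, 80.3, 64.1, 101 and 71.8 CPM in unloaded MDM, 482, 151, 276 and 333 CPM in lipid-laden microglia and 480.2, 343, 320.1 and 432 CPM in unloaded microglia. The lipid-laden MDM libraries all lay above the unloaded ones and overlapped the microglial range. Its rise was 1.69 ± 0.31 (adjusted p = 0.00361), its level in unloaded MDM against unloaded microglia was lower at a log2 fold change of -2.31 ± 0.31 (adjusted p = 5.75e-05), and in microglia lipid load gave -0.34 ± 0.29 (adjusted p = 0.811). Exons of Slco2b1 overlap antisense transcripts in the annotation, and reads of the 2 strands could not be told apart. Slc22a17, a receptor for the iron-carrying protein lipocalin 2, had 9.09, 9.47 and 17.0 CPM in lipid-laden MDM, 4.83, 1.05, 2.47 and 0.996 CPM in unloaded MDM, 32.6, 26.5, 17.2 and 28.3 CPM in lipid-laden microglia and 50.5, 31.8, 30.0 and 22.6 CPM in unloaded microglia. It was a low gene in MDM, and no unloaded MDM library reached the lowest lipid-laden one. The rise was 2.34 ± 0.49 (adjusted p = 0.00782) and the difference from microglia without lipid -3.84 ± 0.49 (adjusted p = 4.55e-05). Slco4a1, another thyroid hormone carrier, was lower in unloaded MDM than in unloaded microglia at -2.05 ± 0.46 (adjusted p = 0.00435). It had 46.6, 40.7 and 92.5 CPM in lipid-laden MDM, 31.6, 8.98, 64.9 and 42.2 CPM in unloaded MDM, 98.6, 34.7, 72.9 and 85.1 CPM in lipid-laden microglia and 186, 109, 153 and 164 CPM in unloaded microglia. In microglia its log2 fold change with lipid load was -1.07 ± 0.45 (adjusted p = 0.479) and in MDM 0.70 ± 0.48 (adjusted p = 0.427), neither past the threshold, and the difference of these effects was 1.77 ± 0.65 (adjusted p = 0.177), or 2.14 (adjusted p = 0.0226) with the number as a block. Slc17a5, the exporter of sialic acid from lysosomes, was at 1.22 ± 0.43 (adjusted p = 0.0911) with lipid load in MDM and was not called.

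**Figure D4:**
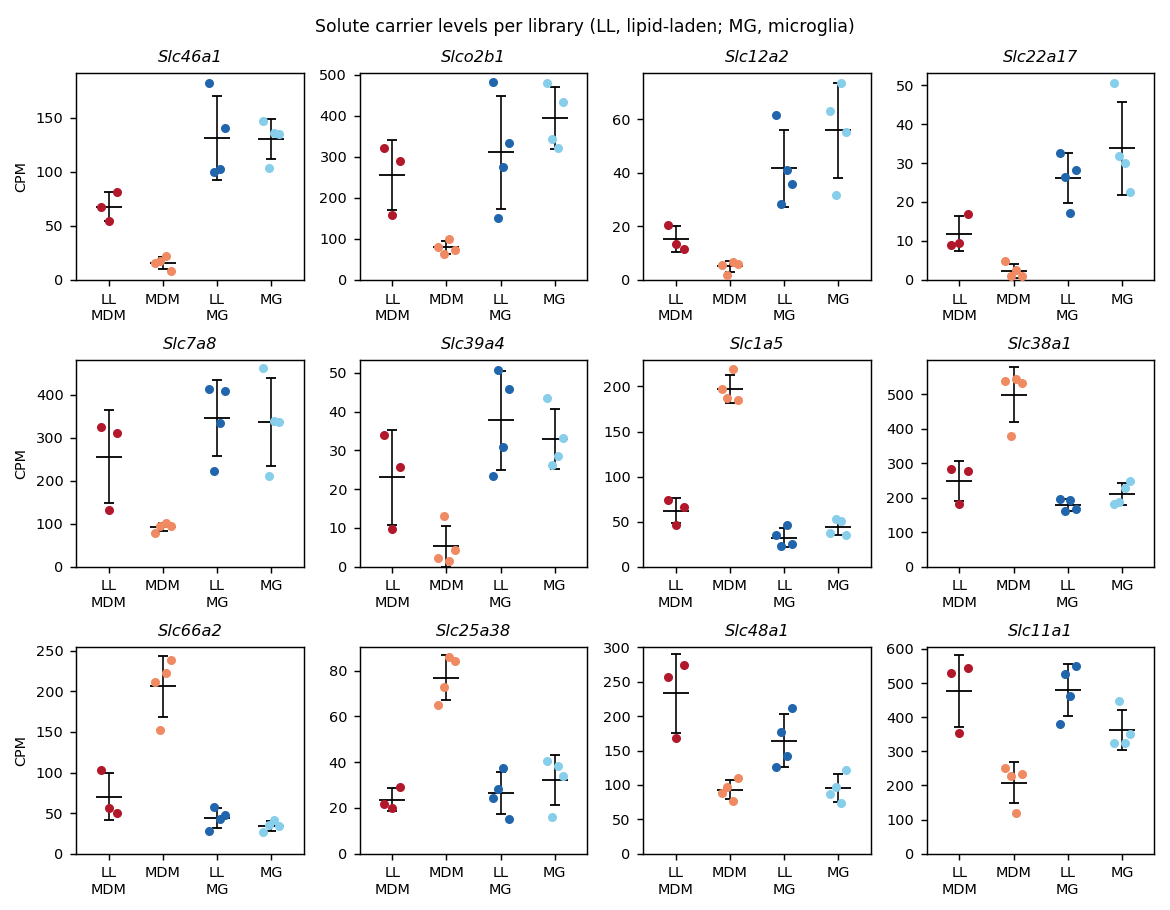
CPM per library (points) with mean and SD (bars) of 12 solute carrier genes in lipid-laden MDM (LL MDM), unloaded MDM (MDM), lipid-laden microglia (LL MG) and unloaded microglia (MG). Slc1a5, Slc38a1, Slc66a2 and Slc25a38 are highest in unloaded MDM with all 4 libraries above every other, while Slc46a1, Slco2b1, Slc12a2, Slc22a17, Slc7a8 and Slc39a4 are lowest there by mean.

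Amino acid and peptide carriers numbered 24 and split in direction. In lipid-laden MDM 5 rose and 3 fell, and in unloaded MDM against unloaded microglia 3 were higher and 10 lower. These comparisons share the unloaded MDM libraries. Slc1a5, the ASCT2 exchanger that brings glutamine into cells, had 73.6, 46.6 and 66.7 CPM in lipid-laden MDM, 197, 187, 219 and 185 CPM in unloaded MDM, 34.9, 22.9, 46.5 and 24.9 CPM in lipid-laden microglia and 37.8, 53.1, 50.9 and 35.1 CPM in unloaded microglia. All unloaded MDM libraries were above all others. It fell in lipid-laden MDM, with a log2 fold change of -1.66 ± 0.25 (adjusted p = 0.000824), it was higher in unloaded MDM than in unloaded microglia at a log2 fold change of 2.15 ± 0.23 (adjusted p = 8.79e-06), and in lipid-laden MDM than in lipid-laden microglia at a log2 fold change of 0.95 ± 0.24 (adjusted p = 0.0454). The last call was lost with RLE size factors and when any 1 of 11 libraries was left out (highest adjusted p 0.219). With the number as a block it was at 1.09 (adjusted p = 0.0144). Slc38a1, a sodium-coupled importer of glutamine, had 285, 182 and 278 CPM in lipid-laden MDM, 538, 379.6, 545 and 533 CPM in unloaded MDM, 196, 162, 193 and 167 CPM in lipid-laden microglia and 181, 188, 229 and 248 CPM in unloaded microglia, and fell in lipid-laden MDM, with a log2 fold change of -1.01 ± 0.19 (adjusted p = 0.00342). Again no library of another group reached unloaded MDM. Slc66a2 had 103, 56.5 and 50.3 CPM in lipid-laden MDM, 211, 153, 223 and 239 CPM in unloaded MDM, 27.4, 57.2, 42.7 and 47.6 CPM in lipid-laden microglia and 26.8, 35.0, 41.3 and 33.8 CPM in unloaded microglia, and fell in lipid-laden MDM, with a log2 fold change of -1.56 ± 0.28 (adjusted p = 0.00313). In microglia its log2 fold change with lipid load was 0.36 ± 0.26 (adjusted p = 0.746). The related importer gene Slc38a2 was not called in lipid-laden MDM (log2 fold change -0.66 ± 0.27, adjusted p = 0.145), and nor was the LAT1 light chain gene Slc7a5 (log2 fold change -1.49 ± 0.60, adjusted p = 0.143; 8.71 ± 2.37 CPM in lipid-laden MDM and 24.6 ± 14.9 CPM in unloaded MDM).

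The amino acid carriers that rose in lipid-laden MDM included the exchanger genes Slc7a8 and Slc7a7 and the lysosomal exporter gene Slc38a7. Slc7a8, the LAT2 light chain that exchanges neutral amino acids, had 324, 131 and 312 CPM in lipid-laden MDM, 79.8, 94.1, 102 and 96.0 CPM in unloaded MDM, 414, 224, 335 and 408 CPM in lipid-laden microglia and 462, 211, 339 and 337 CPM in unloaded microglia. Lipid-laden MDM lay above unloaded MDM, with number 221 below all microglial libraries and the other 2 among them. The rise was 1.46 ± 0.30 (adjusted p = 0.00630), and unloaded MDM were lower than unloaded microglia at a log2 fold change of -1.86 ± 0.29 (adjusted p = 0.000223). Slc38a7, which releases glutamine and asparagine from lysosomes, had 73.0, 40.3 and 97.4 CPM in lipid-laden MDM, 17.6, 23.0, 11.2 and 33.3 CPM in unloaded MDM, 57.8, 63.9, 37.3 and 50.6 CPM in lipid-laden microglia and 64.6, 43.8, 43.4 and 54.1 CPM in unloaded microglia. Its rise was 1.72 ± 0.34 (adjusted p = 0.00544), and in microglia lipid load gave 0.03 ± 0.31 (adjusted p = 0.999). Slc43a2, the LAT4 uniporter of branched-chain amino acids, rose, with a log2 fold change of 1.09 ± 0.27 (adjusted p = 0.0224), a call that was lost without MDM 224 or 718 of either kind (highest adjusted p 0.108). Slc7a7, the y+LAT1 light chain that exports cationic amino acids, rose, with a log2 fold change of 0.85 ± 0.19 (adjusted p = 0.0118) and lost its call without lipid-laden MDM 224 (adjusted p = 0.0634). Slc36a4 rose, with a log2 fold change of 1.38 ± 0.35 (adjusted p = 0.0244), a call lost without number 718 of either MDM group, lipid-laden MDM 224 or unloaded MDM 221 (highest adjusted p 0.104). Exons of Slc7a7 overlap Oxa1l on the other strand, and those of Slc43a2 a predicted antisense gene.

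A further 5 amino acid carriers were lower in unloaded MDM than in unloaded microglia but were not called with lipid load: Slc36a1, a proton-coupled exporter of small amino acids in lysosomes, at -1.57 ± 0.33 (adjusted p = 0.00282), Slc16a10, the aromatic amino acid carrier, at -1.08 ± 0.29 (adjusted p = 0.0125), and Slc15a4, the lysosomal histidine and peptide transporter that Toll-like receptor signalling in endosomes depends on, at -0.77 ± 0.20 (adjusted p = 0.0118), with Slc38a6 (-1.38) and Slc38a10 (-0.82). The call of Slc38a6 was lost with RLE size factors, no filter or limma-voom, and when any 1 of 10 libraries was left out (highest adjusted p 0.170). That of Slc38a10 was lost without unloaded MDM 221 or unloaded microglia 224 or 431 (highest 0.0614). Slc43a3, placed here by its family number although it carries purine nucleobases, was also lower, at -1.57 ± 0.38 (adjusted p = 0.00654). Slc15a3, the other lysosomal peptide transporter, was called in no comparison, at 164 ± 18.0 CPM in lipid-laden MDM, 164 ± 20.7 CPM in unloaded MDM, 156 ± 16.8 CPM in lipid-laden microglia and 137 ± 22.8 CPM in unloaded microglia. Slc38a9, which passes the arginine signal of the lysosome to mTORC1, was called in no comparison (-0.62 with lipid load in MDM and -0.05 in microglia). The arginine importer gene Slc7a2 varied between libraries of a group, with 27.2, 76.6 and 9.26 CPM in lipid-laden MDM, 7.25, 36.3, 0.520 and 10.2 CPM in unloaded MDM, 0.223, 9.44, 11.4 and 6.30 CPM in lipid-laden microglia and 0, 6.51, 2.81 and 0.632 CPM in unloaded microglia, and passed no test (smallest adjusted p among the 4 pairwise comparisons 0.165 for unloaded MDM against unloaded microglia).

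Metal and heme carriers numbered 25, of which 5 rose and 1 fell in lipid-laden MDM, and 2 were higher and 6 lower in unloaded MDM than in unloaded microglia. Slc11a1, which exports iron and manganese from the phagosome, had 530.2, 354 and 545 CPM in lipid-laden MDM, 251, 229, 119 and 233 CPM in unloaded MDM, 380.5, 527, 463 and 549.8 CPM in lipid-laden microglia and 323, 448, 326 and 352 CPM in unloaded microglia. Lipid-laden MDM did not overlap unloaded MDM and lay within the range of lipid-laden microglia except for its lowest library. It rose, with a log2 fold change of 1.20 ± 0.23 (adjusted p = 0.00466), and in microglia lipid load gave 0.41 ± 0.22 (adjusted p = 0.596). Slc48a1, which moves heme out of the phagolysosome, had 256, 168 and 274 CPM in lipid-laden MDM, 88.4, 97.6, 77.3 and 109.6 CPM in unloaded MDM, 126, 178, 141 and 212 CPM in lipid-laden microglia and 87.3, 96.9, 73.9 and 122 CPM in unloaded microglia. No unloaded library of either origin reached the lowest lipid-laden one. The rise in MDM was 1.32 ± 0.22 (adjusted p = 0.00173). In microglia it was 0.79 ± 0.21 (adjusted p = 0.212), and past the threshold only with the replicate block and with DESeq2, as given above. The interaction of the 2 effects was 0.53 ± 0.30 (adjusted p = 0.411). Exons of Slc48a1 overlap Hdac7 on the other strand.

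Among the zinc importers of the ZIP family, 2 rose in lipid-laden MDM. Slc39a4 had 33.9, 9.80 and 25.6 CPM in lipid-laden MDM, 2.22, 13.1, 1.56 and 4.26 CPM in unloaded MDM, 23.4, 50.7, 31.0 and 45.9 CPM in lipid-laden microglia and 43.5, 26.1, 28.6 and 33.1 CPM in unloaded microglia, and rose in lipid-laden MDM, with a log2 fold change of 2.13 ± 0.58 (adjusted p = 0.0344). The lowest lipid-laden library, number 221, lay below the highest unloaded one. Slc39a8, which also takes up manganese, had 43.7, 36.5 and 27.8 CPM in lipid-laden MDM, against 12.7, 21.5, 10.0 and 14.0 CPM in unloaded MDM, and rose, with a log2 fold change of 1.31 ± 0.36 (adjusted p = 0.0342). The call of Slc39a4 was lost without lipid-laden MDM 224 or 718 or unloaded MDM 224, 431 or 718 (highest adjusted p 0.129). That of Slc39a8 was lost with limma-voom and without any lipid-laden MDM library or unloaded MDM 224, 431 or 718 (highest 0.116). Slc39a4 and Slc39a8 were lower in unloaded MDM than in unloaded microglia, at -2.64 ± 0.56 (adjusted p = 0.00315) and -1.76 ± 0.34 (adjusted p = 0.00148). Slc39a10 was lower in MDM of either kind than in the matching microglia, at -1.06 ± 0.30 (adjusted p = 0.0179) unloaded and -1.28 ± 0.33 (adjusted p = 0.0497) lipid-laden, and Slc39a11 higher in unloaded MDM at 1.02 ± 0.17 (adjusted p = 0.000361). Slc39a10 lost the unloaded call without number 431 of MDM or of microglia (highest adjusted p 0.0840). It lost the lipid-laden call with limma-voom and when any 1 of 12 libraries was left out (highest 0.191). The zinc carrier gene Slc30a6, of the Golgi, rose in lipid-laden MDM, with a log2 fold change of 0.94 ± 0.25 (adjusted p = 0.0326). That call was lost without lipid-laden MDM 221 or 224, without unloaded MDM 224, 431 or 718, or with no filter on low counts (highest adjusted p 0.108), and Slc30a1, the plasma membrane exporter, was not called (-0.07).

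Of the iron carrier genes, Slc11a2 (DMT1), which moves iron out of endosomes, was lower in unloaded MDM than in unloaded microglia at a log2 fold change of -1.22 ± 0.22 (adjusted p = 0.000705), and Slc25a37, the mitochondrial iron importer mitoferrin 1, was lower at -1.50 ± 0.42 (adjusted p = 0.0177), a call lost without unloaded MDM 221 (adjusted p = 0.0522). Its paralog Slc25a28, mitoferrin 2, was at 0.77 ± 0.38 (adjusted p = 0.155) and not called. Slc25a37 had 31.0, 5.29 and 40.9 CPM in lipid-laden MDM, 19.1, 11.7, 17.0 and 19.6 CPM in unloaded MDM, 30.3, 24.5, 39.7 and 33.0 CPM in lipid-laden microglia and 50.8, 36.8, 45.6 and 57.3 CPM in unloaded microglia. Neither Slc11a2 nor Slc25a37 passed the test with lipid load in MDM, at 0.69 ± 0.23 (adjusted p = 0.0781) and 0.61 ± 0.45 (adjusted p = 0.463). Slc41a1, a magnesium exporter, was higher in unloaded MDM than in unloaded microglia at 1.28 ± 0.29 (adjusted p = 0.00417) and fell in lipid-laden MDM, with a log2 fold change of -1.14 ± 0.31 (adjusted p = 0.0351). That fall was lost with no filter on low counts and without any lipid-laden MDM library or unloaded MDM 224, 431 or 718 (highest adjusted p 0.126). The copper importer gene Slc31a1 was called nowhere, at 276 ± 75.4 CPM in lipid-laden MDM, 232 ± 20.6 CPM in unloaded MDM, 279 ± 78.3 CPM in lipid-laden microglia and 237 ± 103 CPM in unloaded microglia.

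Mitochondrial carriers numbered 24. With lipid load in MDM 2 rose and 2 fell, and 4 were higher and 3 lower in unloaded MDM than in unloaded microglia. Slc25a38, which imports glycine for heme synthesis, had 21.9, 19.8 and 29.3 CPM in lipid-laden MDM, 64.9, 72.7, 85.7 and 84.2 CPM in unloaded MDM, 24.4, 28.4, 37.4 and 15.4 CPM in lipid-laden microglia and 40.4, 16.1, 38.1 and 33.9 CPM in unloaded microglia. Every unloaded MDM library was above every other library. It fell in lipid-laden MDM, with a log2 fold change of -1.70 ± 0.33 (adjusted p = 0.00490) and was higher in unloaded MDM than in unloaded microglia at a log2 fold change of 1.26 ± 0.30 (adjusted p = 0.00590). Slc25a33, a pyrimidine nucleotide carrier, had 9.63, 10.9 and 6.61 CPM in lipid-laden MDM, against 25.5, 24.3, 17.7 and 29.4 CPM in unloaded MDM. It fell at a log2 fold change of -1.42 ± 0.33 (adjusted p = 0.0145). That call was lost with no filter on low counts and without lipid-laden MDM 718 (adjusted p up to 0.0875 over the alternatives). Slc25a10, the dicarboxylate carrier, had 82.9, 59.2 and 86.7 CPM in lipid-laden MDM, 35.1, 51.7, 26.2 and 29.7 CPM in unloaded MDM, 69.5, 57.8, 78.3 and 68.9 CPM in lipid-laden microglia and 45.5, 47.3, 45.7 and 45.4 CPM in unloaded microglia, and rose in lipid-laden MDM, with a log2 fold change of 1.10 ± 0.22 (adjusted p = 0.00572). Its exons overlap a predicted antisense gene.

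Of the ADP/ATP carriers, Slc25a4 had 236, 301 and 238 CPM in lipid-laden MDM, 177, 219, 174 and 149.9 CPM in unloaded MDM, 300.2, 321, 281 and 314 CPM in lipid-laden microglia and 272, 300.4, 278 and 263 CPM in unloaded microglia, and rose in lipid-laden MDM, with a log2 fold change of 0.52 ± 0.14 (adjusted p = 0.0313), the smallest called rise in that comparison. That call was lost with no filter on low counts, without lipid-laden MDM 221 or 718 or without unloaded MDM 224, 431 or 718 (highest adjusted p 0.146). Its more abundant paralog Slc25a5 was at 0.16 ± 0.17 (adjusted p = 0.630). Slc25a24, a calcium-regulated carrier of ATP-magnesium and phosphate, had 22.2, 3.75 and 9.45 CPM in lipid-laden MDM, 10.9, 31.3, 12.6 and 32.1 CPM in unloaded MDM, 0.780, 18.0, 2.99 and 6.00 CPM in lipid-laden microglia and 2.47, 4.24, 0.117 and 2.66 CPM in unloaded microglia. It was higher in unloaded MDM than in unloaded microglia at a log2 fold change of 3.18 ± 0.93 (adjusted p = 0.0212), a call lost without unloaded MDM 718 (adjusted p = 0.0519). Counts in unloaded MDM helped Slc25a24 pass the limit, so its levels are a description. In the same comparison Slc25a25 of the same kind was lower at a log2 fold change of -1.32 ± 0.28 (adjusted p = 0.00286). The NAD+ carrier gene Slc25a51 was higher in unloaded MDM at 0.76 ± 0.23 (adjusted p = 0.0246), a call lost without unloaded MDM 431 or unloaded microglia 224 or 718 (highest adjusted p 0.0692), and Slc25a36, another pyrimidine nucleotide carrier, lower at -0.62 ± 0.17 (adjusted p = 0.0136), a call lost without unloaded microglia 224 (adjusted p = 0.0555). In microglia the smallest p of the class was that of Slc25a45, at -0.66 ± 0.21 (adjusted p = 0.349) with lipid load, which did not pass. The citrate carrier gene Slc25a1 was called nowhere (0.33 with lipid load in MDM and 0.38 in microglia).

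Carriers of inorganic ions numbered 19, counting the 2 non-transporters Slc9a3r1 and Slc4a1ap. In lipid-laden MDM 3 rose and none fell, and in unloaded MDM against unloaded microglia 2 were higher and 3 lower. Slc12a2 encodes the sodium-potassium-chloride cotransporter NKCC1. It had 20.7, 13.6 and 11.5 CPM in lipid-laden MDM, 5.44, 1.98, 6.90 and 5.98 CPM in unloaded MDM, 61.8, 28.2, 41.3 and 35.8 CPM in lipid-laden microglia and 63.2, 31.7, 73.5 and 55.1 CPM in unloaded microglia. The 3 ranges of lipid-laden MDM, unloaded MDM and microglia did not overlap. It rose in lipid-laden MDM, with a log2 fold change of 1.58 ± 0.40 (adjusted p = 0.0226). That call was lost with limma-voom and without number 224 of either MDM group (highest adjusted p 0.140). Slc12a2 was lower in unloaded MDM than in unloaded microglia at a log2 fold change of -3.46 ± 0.40 (adjusted p = 1.62e-05). Between the lipid-laden groups it was at -1.45 ± 0.40 (adjusted p = 0.0692), and with the number as a block at -1.31 (adjusted p = 0.0261). Slc12a7, the potassium-chloride cotransporter KCC4, had 59.0, 49.1 and 51.2 CPM in lipid-laden MDM, against 19.0, 42.6, 18.1 and 32.3 CPM in unloaded MDM. It rose, with a log2 fold change of 0.92 ± 0.27 (adjusted p = 0.0436). That call was lost with no filter on low counts and without any MDM library of either kind except unloaded MDM 221. It was also lost without unloaded microglia 224, 431 or 718 or lipid-laden microglia 224 (highest adjusted p 0.129). Slc9a9, a sodium-proton exchanger of endosomes, rose, with a log2 fold change of 0.97 ± 0.25 (adjusted p = 0.0281), which was lost without lipid-laden MDM 224 or 718 or unloaded MDM 221, 431 or 718 (highest 0.174). Slc9a7, the exchanger of the trans-Golgi network, was higher in unloaded MDM than in unloaded microglia at a log2 fold change of 2.28 ± 0.41 (adjusted p = 0.000785). It had 15.4, 13.0 and 12.5 CPM in lipid-laden MDM, 33.8, 28.2, 33.0 and 26.3 CPM in unloaded MDM, 4.79, 3.72, 10.5 and 5.08 CPM in lipid-laden microglia and 8.39, 9.30, 3.86 and 3.29 CPM in unloaded microglia. The scaffold gene Slc9a3r1 was higher at a log2 fold change of 0.76 ± 0.18 (adjusted p = 0.00584) in the same comparison. The phosphate importer gene Slc20a1, the sodium-calcium exchanger gene Slc8a1 and the bicarbonate carrier gene Slc4a7 were called in no comparison.

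Nucleotide sugar and acetyl-CoA carriers of the endoplasmic reticulum and Golgi numbered 20, of which 1 rose in lipid-laden MDM and none fell. Slc35f6 had 88.1, 100.4 and 126 CPM in lipid-laden MDM, 43.2, 64.4, 39.8 and 36.4 CPM in unloaded MDM, 119.9, 169, 110.0 and 153 CPM in lipid-laden microglia and 124, 132, 112 and 131 CPM in unloaded microglia, and rose, with a log2 fold change of 1.19 ± 0.21 (adjusted p = 0.00245). The lipid-laden MDM libraries were all above the unloaded ones. In unloaded MDM 4 were lower than in unloaded microglia: Slc35f6 at -1.44 ± 0.20 (adjusted p = 8.29e-05), Slc35e3 at -1.49 ± 0.37 (adjusted p = 0.00919), the UDP-galactose carrier gene Slc35a2 at -0.89 ± 0.21 (adjusted p = 0.00581) and Slc35b2, which carries the sulfate donor PAPS, at -0.46 ± 0.13 (adjusted p = 0.0197). Slc35e3 passed the limit narrowly with 1514 counts and was higher in unloaded microglia, so its call is a description. The call of Slc35b2 was lost with no filter on low counts and without unloaded MDM 224 or unloaded microglia 431 or 718 (highest adjusted p 0.0642). Slc35a1, the CMP-sialic acid carrier gene, was not called (0.75).

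Sugar and polyol carriers numbered 9, and none was called with lipid load. Slc2a3, the high-affinity glucose transporter GLUT3, had 48.0, 23.0 and 15.8 CPM in lipid-laden MDM, 27.8, 15.4, 19.9 and 19.4 CPM in unloaded MDM, 23.9, 108, 78.7 and 83.8 CPM in lipid-laden microglia and 26.8, 58.8, 31.6 and 27.8 CPM in unloaded microglia, and was at 1.02 ± 0.42 (adjusted p = 0.477) with lipid load in microglia. The groups overlapped: lipid-laden microglia 224 lay below every unloaded library and the other 3 above every one. Slc37a4, the glucose-6-phosphate carrier of the endoplasmic reticulum, was at 0.84 ± 0.28 (adjusted p = 0.356) in the same comparison. Slc2a6, an endolysosomal family member, stood at 201 ± 51.3 CPM in lipid-laden MDM, 162 ± 25.1 CPM in unloaded MDM, 186 ± 38.7 CPM in lipid-laden microglia and 179 ± 36.0 CPM in unloaded microglia. Slc37a2, a sugar phosphate exchanger abundant in macrophages, was at 0.81 ± 0.25 (adjusted p = 0.0545) with lipid load in MDM and Slc2a8 at 0.60 ± 0.31 (adjusted p = 0.275). Slc45a4 was lower in unloaded MDM than in unloaded microglia, at -1.25 ± 0.36 (adjusted p = 0.0193), and lost that call without unloaded MDM 224 or unloaded microglia 718 (highest adjusted p 0.0721). In this comparison all 9 had a negative log2 fold change, where the median over all genes tested was -0.12.

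The monocarboxylate carriers numbered 4. Slc16a1, the lactate and pyruvate carrier MCT1, was lower in unloaded MDM than in unloaded microglia at -0.73 ± 0.23 (adjusted p = 0.0295), a call lost without any unloaded microglial library or unloaded MDM 431 or 718 (highest adjusted p 0.0875). With lipid load it was at 0.51 in MDM and -0.01 in microglia. Slc16a7, the higher-affinity carrier MCT2, had 33.0, 25.3 and 35.5 CPM in lipid-laden MDM, 26.5, 26.5, 11.7 and 12.1 CPM in unloaded MDM, 10.5, 10.1, 11.2 and 5.49 CPM in lipid-laden microglia and 13.4, 16.1, 13.6 and 20.6 CPM in unloaded microglia. It was higher in lipid-laden MDM than in lipid-laden microglia at a log2 fold change of 1.74 ± 0.36 (adjusted p = 0.0159), with no overlap, and with the number as a block by 1.71 (adjusted p = 0.0323). Without lipid-laden MDM 224 or 718 the call was lost (highest adjusted p 0.0699). Slc16a6 was not called, and its exons overlap Amz2 and Arsg on the other strand.

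Of the osmolyte and creatine carriers, the creatine importer gene Slc6a8 had 28.6, 12.2 and 23.7 CPM in lipid-laden MDM, 7.15, 5.36, 2.47 and 11.6 CPM in unloaded MDM, 14.0, 50.1, 34.0 and 22.1 CPM in lipid-laden microglia and 8.28, 10.0, 7.72 and 7.71 CPM in unloaded microglia. It rose in lipid-laden MDM, with a log2 fold change of 1.69 ± 0.49 (adjusted p = 0.0445), and in microglia was at 1.83 ± 0.46 (adjusted p = 0.190). The difference of the 2 effects was -0.15 (95% interval -1.45 to 1.16). The MDM call was lost under 14 of 21 alternatives, among them limma-voom and leaving out any of 11 single libraries (highest adjusted p 0.152). The taurine importer gene Slc6a6 was called nowhere, at 404 ± 119 CPM in lipid-laden MDM, 368 ± 21.6 CPM in unloaded MDM, 366 ± 48.4 CPM in lipid-laden microglia and 335 ± 21.9 CPM in unloaded microglia.

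None of the 4 choline and fatty acid carriers was called in any comparison of the main fit. The fatty acid transport protein genes Slc27a1 and Slc27a4 had log2 fold changes with lipid load of 0.93 ± 0.30 (adjusted p = 0.0676) and 0.94 ± 0.32 (adjusted p = 0.0852) in MDM, and of 0.73 ± 0.28 (adjusted p = 0.437) and 0.22 ± 0.30 (adjusted p = 0.911) in microglia. Slc27a1 had 82.4, 52.1 and 104 CPM in lipid-laden MDM, 38.1, 43.3, 30.7 and 54.7 CPM in unloaded MDM, 64.4, 66.3, 41.6 and 67.5 CPM in lipid-laden microglia and 52.9, 33.6, 22.2 and 35.9 CPM in unloaded microglia. The lipid-laden and unloaded libraries overlapped in both origins, through lipid-laden MDM 221 and lipid-laden microglia 431. The choline transporter gene Slc44a1 was at 0.59 ± 0.33 (adjusted p = 0.312) in MDM and Slc44a2 at -0.86 ± 0.34 (adjusted p = 0.132). With the number as a block, Slc44a2 passed the threshold in lipid-laden against unloaded MDM, at -0.91 (adjusted p = 0.0190). In that blocked fit it was also higher in unloaded MDM than in unloaded microglia, at 0.83 (adjusted p = 0.00706).

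Carriers of lysosomes and endosomes, taken as a list of 14 members across the substrate classes, had 4 that rose in lipid-laden MDM, Slc11a1, Slc38a7, Slc48a1 and Slc9a9 (4 of 14, against 5.21% of all genes), and none that fell (2.96% of all genes). All 14 are members, and of all genes with at least 1500 counts 7.36% rose and 4.77% fell in that comparison. The median log2 fold change of the list was 0.81, against 0.04 for all genes tested. In unloaded MDM against unloaded microglia 6 were lower (6 of 14, against 12.5% of all genes and 14.2% of those with at least 1500 counts). None was higher (10.7% of all genes and 15% of those with at least 1500 counts). The median was -0.64, against -0.12 for all genes, and with lipid load in microglia none was called. Of 14 carriers typical of astrocytes and neurons, 7 passed the filter for testing and 1 of them, Slc27a1, is a member; Slc6a9 was among those lower in unloaded MDM than in unloaded microglia, and none was called with lipid load. Of 10 carriers typical of brain endothelium 7 were tested, and the called ones, Slc16a1, Slc39a10 and Slc39a8, were members already described.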

How the data were processed

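The deposited table held raw read counts per gene, whole numbers that were not normalized, per the file headers, with Ensembl identifiers and coordinates on mm10, per the submitters' processing notes. Per the labels' protocols, cDNA of the sorted cells was made with an oligo-dT primer and a template switch. The sources used here name no aligner, counter or strand setting, and the 47 members whose exons overlap another gene in GENCODE M21 are uncertain. No count lacked a gene, all columns were used, and replicates differed by more than counting noise (chi-square at least 18.6 per degree of freedom). Libraries carried no molecular identifiers.

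The test was that of edgeR 4.0.16 under R 4.3.3 (filterByExpr with a minimum count of 10 and total of 15, TMM, quasi-likelihood test, 1 coefficient for each of 4 groups over 15 libraries, no covariates), which kept 14843 of 55486 genes, with Benjamini-Hochberg adjustment over all of them. The SE is the absolute log2 fold change divided by the root of F. The script was tested on simulated data. The alternatives were RLE size factors, no filter, DESeq2 1.42.0, limma-voom (limma 3.58.1), the replicate number as a block, leaving out each of 15 libraries, and, added after seeing the data, leaving out both lipid-laden libraries numbered 221. The titles do not say what the numbers mean. Deviations from group means correlated over 0.1 for every same-numbered pair of lipid-laden and unloaded microglia (0.124 to 0.256, against -0.200 to 0.0941 for other numbers) and of lipid-laden MDM and lipid-laden microglia (0.107 to 0.168, against -0.108 to 0.0291), so the numbers were taken to pair those groups.

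Members, substrate classes and lists were chosen with earlier results of these data known. The text names, per comparison, the 8 called members with the largest rise and fall at an average log2 CPM of at least 2, or the 5 with the smallest p where fewer than 5 passed, up to 4 called members per class, and a fixed list; 75 members met this, and the others are named to complete a count. Exonic length is the union of a gene's exons in GENCODE M21.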

Additional observations from a re-analysis of the deposited data

Results flagged for a closer look

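Lipid-load effects differed between MDM and microglia for 4 members in the test of the difference itself. The log2 difference, MDM minus microglia, was 2.08 for Slc46a1, 2.04 for Slco2b1, 2.70 for Slc22a17 and -1.92 for Slc66a2.

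Single libraries stood far from the rest of their group, by Dixon's criterion, in 17 of 225 combinations of named member and group of 4 libraries, where chance alone gives about 5%. In unloaded MDM 431, Slc11a1 was at 119 CPM (others 229 to 251), Slc29a1 at 67.7 (93.3 to 97.0) and Slc35a1 at 76.9 (47.4 to 48.1). Slc38a1 was at 379.6 CPM in unloaded MDM 221 (533 to 545), and Slc25a3 at 509 in unloaded MDM 718 (528 to 531). In unloaded microglia 221, Slc31a1 was at 391 CPM (173 to 196), Slc2a3 at 58.8 (26.8 to 31.6), Slc25a1 at 51.5 (71.2 to 75.1) and Slc25a10 at 47.3 (45.4 to 45.7). In unloaded microglia 224, Slc16a6 was at 227 CPM (168 to 176), Slc39a11 at 53.7 (47.8 to 48.4) and Slc52a3 at 1.08 (0 in the others). In lipid-laden microglia 431, Slc27a1 was at 41.6 CPM (64.4 to 67.5) and Slc27a4 at 40.7 (22.4 to 23.4). Slc6a6 was at 438 CPM (334 to 351) and Slc52a3 at 0.407 (0 in the others) in lipid-laden microglia 718, and Slc25a33 at 8.58 (5.77 to 6.13) in lipid-laden microglia 224.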

How the results depend on the processing

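Among the named members no called result changed direction under any alternative, but some results that passed no threshold did. For lipid-laden against unloaded MDM, leaving out 1 library gave 10 to 25 members higher and 4 to 8 lower. Over all genes it gave 451 to 862 higher and 206 to 521 lower, against 773 and 440 in the main fit. The other alternatives stayed within 1.5 times of 20 and 7. The replicate block gave 25 and 9 (908 and 621 of all genes), and 13 of 25 named calls held throughout. For unloaded MDM against unloaded microglia no alternative moved the 12 and 35 by over 1.5 times, and 32 of 39 named calls held throughout. The block gave 16 and 39, with 1865 and 2104 of all genes, against 1584 and 1858 in the main fit. The blocked fits of these 2 comparisons rest on a shared number only. For lipid-laden against unloaded microglia, DESeq2 called 2 members higher (92 of all genes), the replicate block 1 (60), and leaving out 1 library 0 (0 to 43). For the lipid-laden groups, DESeq2 called 4 higher and 4 lower (515 and 283 of all genes, against 327 and 86 in the main fit). RLE factors called 1 higher (309 of all genes), and the block 3 higher and 4 lower (422 and 147). Leaving out 1 library gave 0 to 2 higher and 0 to 1 lower (155 to 353 and 13 to 103 of all genes). Leaving out both lipid-laden libraries numbered 221 gave 1 and 0 (289 and 48). For the difference of effects, DESeq2 called 11 higher and 7 lower (546 and 414 of all genes, against 237 and 138 in the main fit). The block called 12 and 2 (418 and 239 of all genes). Leaving out 1 library gave 1 to 7 and 0 to 2 (113 to 263 and 73 to 189). Leaving out both numbered 221 gave 6 and 0 (176 and 110). Apart from the smaller number of libraries, the causes were not tested. Low members such as Slc52a3 and Slc22a17 rest on few counts in some libraries, and 3 libraries of lipid-laden MDM limit each comparison that uses them.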

Other observations

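Transporters of the superfamily under other symbols, and their subunits, were looked at as a list of 26 genes, of which 24 were tested. In lipid-laden against unloaded MDM 3 rose (5.21% of all genes): Bsg, the chaperone of monocarboxylate carriers, by 0.63 ± 0.17 (adjusted p = 0.0321), Mfsd1, a lysosomal dipeptide carrier, by 1.09 ± 0.16 (adjusted p = 0.000717), and Mfsd11 by 1.26 ± 0.14 (adjusted p = 6.94e-05). The list's median log2 fold change was 0.21, against 0.04 for all genes. Bsg averaged 771 ± 179 CPM in lipid-laden MDM and 498 ± 73.5 CPM in unloaded MDM. In unloaded MDM against unloaded microglia 6 were higher (10.7% of all genes) and 5 lower (12.5% of all genes). Among the higher were both subunits of the mitochondrial pyruvate carrier, Mpc1 at 0.57 ± 0.16 (adjusted p = 0.0179) and Mpc2 at 0.70 ± 0.15 (adjusted p = 0.00331). None of the list was called with lipid load in microglia.

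Of 15 ion and metal pumps, 3 rose (5.21% of all genes) and 1 fell (2.96% of all genes) in lipid-laden MDM. The catalytic V-ATPase subunit gene Atp6v1a, part of the pump that acidifies lysosomes, was at 0.74 ± 0.17 (adjusted p = 0.0129), its partner Atp6v1b2 at 0.66 ± 0.19 (adjusted p = 0.0458) and the lysosomal polyamine exporter gene Atp13a2 at 0.98 ± 0.27 (adjusted p = 0.0351). The copper pump gene Atp7b fell (adjusted p = 0.0494), with 0 ± 0 CPM in lipid-laden MDM and 0.415 ± 0.422 CPM in unloaded MDM; its fold is not given because no lipid-laden MDM library held a count of it. Unloaded MDM against unloaded microglia gave 1 higher (10.7% of all genes) and 1 lower (12.5% of all genes), Atp2b1 at 0.56 ± 0.16 (adjusted p = 0.0184) and Atp13a2 at -0.73 ± 0.25 (adjusted p = 0.0483).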
